A study of Homo sapiens with 2 samples.

Results

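The 9 miRNAs described here, usually read as markers of blood, liver, vessel and connective tissue cells, were followed in FaDu, a line of squamous carcinoma cells from the hypopharynx (written FadU in the labels). They were chosen by name, as markers of cell types: miR-486-5p and miR-451a for erythroid cells, miR-150-5p and miR-223-3p for leukocytes, miR-122-5p for liver, miR-126-3p and miR-126-5p for endothelium, and miR-143-3p and miR-145-5p for mesenchymal cells. All 9 were found among the 2038 mature miRNA names of each deposited file. The study sequenced small RNA from 2 libraries, 1 of parental cells and 1 of cells expanded as spheres in stem cell medium, to find miRNAs of sphere-derived cells. The parental medium was RPMI-1640 and held 10% fetal bovine serum. The sphere medium was DMEM-F12, to which N2 Plus Supplement was added together with bFGF and EGF at 10 ng/ml each. Both media held 1% penicillin-streptomycine, and no serum is named for the sphere medium. Serum, basal medium, growth factors and growth form differ together between the libraries and cannot be told apart. With 1 library per group there is no replicate, no test between conditions and no p-value, and every interval below covers counting error only.

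A miRNA is cut from a hairpin precursor, and 1 of its arms usually accumulates more than the other. The bases near its 5′ end, the seed, pair with target mRNAs. Some miRNAs are made almost wholly by a single cell type, which is why they serve as markers of that cell type in tissue, plasma and serum. Fetal bovine serum carries RNA of its own, and many cattle miRNAs have the same mature sequence as the human ones, so a human annotation cannot tell them apart.

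RefSeq (GRCh38.p14, as in the sequence table) gave the mature sequence of 6 of the 9 miRNAs. They are shown because their seeds, in capitals (bases 2 to 8), decide whether any of them can be read as a family.
miR-126-3p: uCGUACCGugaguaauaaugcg
miR-126-5p: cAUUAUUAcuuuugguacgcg
miR-143-3p: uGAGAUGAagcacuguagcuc
miR-145-5p: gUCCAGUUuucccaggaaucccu
miR-223-3p: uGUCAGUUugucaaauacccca
miR-122-5p: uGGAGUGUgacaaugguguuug
The 6 seeds are all different, so these miRNAs form no seed family. Only the seed of miR-143-3p occurred in other mature names of that table, miR-4770 and miR-6088, and both were listed at 0 in both libraries. The closest other mature sequence was 3 edits away for miR-143-3p (miR-4770) and at least 5 edits away for the other 5.

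In the GENCODE 29 annotation, MIR126 is intronic in EGFL7, a gene of endothelial cells, on the same strand. MIR143 and MIR145 lie 1622 bases apart on the strand of CARMN, a long non-coding RNA of smooth muscle, where MIR143 overlaps an exon and MIR145 is intronic. MIR486-1 and MIR486-2 overlap on opposite strands within an intron of ANK1, the gene of erythrocyte ankyrin. How reads that match both copies were counted is not stated in the sources used here. MIR451A lies 92 bases from MIR144, with which it forms an erythroid cluster. Both arms of MIR126 were detected, so its hairpin (chr9:136670602-136670686, plus strand, GRCh38.p14) is shown with the 5p arm and then the 3p arm in capitals.
MIR126: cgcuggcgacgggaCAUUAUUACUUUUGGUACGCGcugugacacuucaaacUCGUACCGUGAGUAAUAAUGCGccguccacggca
The mature 5p arm lies at chr9:136670616-136670636 and the 3p arm at chr9:136670653-136670674. miR-143-3p lies at chr5:149428978-149428998 and miR-145-5p at chr5:149430661-149430683, both on the plus strand.

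The deposited value is RPKM, reads per kilobase of miRNA and 1000000 reads. RPKM summed to 4.82 times less in the sphere library, so levels are given both as deposited and as rescaled RPKM, the share of the column sum times 1000000. Read numbers below are estimates, in which the most frequent value of a library stands for 1 read on 22 nt. That value was 5.84 RPKM for parental cells and 8.07 RPKM for spheres. An estimated 4550670 miRNA reads lay behind the parental and 683671 behind the sphere values, so low miRNAs are less precise in spheres. All reads behind the RPKM, miRNA or not, were estimated at 7782780 for parental cells and 5630022 for spheres. The miRNA part of them was 58.5% in parental cells and 12.1% in spheres. A value of 0 allows up to 3 reads, which is 17.5 RPKM or 0.66 rescaled RPKM in parental cells and 24.2 RPKM or 4.40 rescaled RPKM in spheres. Measured is used here for names whose mean over both libraries reached 10 rescaled RPKM, as 269 names and 4 of the 9 markers did.

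FaDu itself was marked as squamous epithelium in both libraries. All 5 epithelial miRNAs looked up, miR-205-5p, miR-203a, miR-31-5p, miR-200c-3p and miR-141-3p, were measured, and together they took 37310 rescaled RPKM of the parental and 83300 of the sphere library. Most of that difference lay in miR-203a, at 2698 and 35056, whereas miR-205-5p was at 21938 and 19458. By share, 2 of the 5 were at least 2-fold higher in spheres and 0 lower, beside 23% and 19% of all measured miRNAs. As deposited, 1 of the 5 was at least 2-fold higher and 3 lower, beside 6.32% and 79.6%. The 9 markers together took 960 and 738 rescaled RPKM. They were a minor component beside the epithelial miRNAs, though not all of them were near the floor. 4 of the 9 lay above the floor of 3 reads in parental cells and 6 of the 9 in spheres. Those above it in spheres only were miR-451a on about 4 estimated reads and miR-150-5p on about 9. Above 0 were 6 and 7 of the 9, beside 903 and 672 of all 2038 names.

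miR-486-5p was the most abundant marker in parental cells and the only measured one with a lower share in spheres. This miRNA is abundant in red cells and platelets and is also made in muscle. It had 19664 RPKM in parental cells and 1138 RPKM in spheres, or 741 and 207 rescaled RPKM. These values rest on about 3367 and 141 estimated reads. The share was 3.59-fold lower in spheres (95% counting interval 3.03 to 4.28), and the deposited RPKM was 17.3-fold lower (14.6 to 20.6). Its log2 fold, taken here and below from rescaled RPKM + 0.5 as spheres over parental cells, was -1.84, the 15th lowest of the 269 measured. Its rank by level went from 58 to 104 of the 2038 names. In such bulk libraries, fewer cells of a type and less RNA per cell cannot be told apart.

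The opposite arm of this hairpin, miR-486-3p, was lower as well. It had 705 RPKM in parental cells and 25.4 RPKM in spheres, on about 121 and 3 estimated reads. At 26.6 and 4.61 rescaled RPKM, it reached the measured level only through parental cells, and its sphere value lay near the floor. The share was 5.77-fold lower (1.97 to 27.0). The 5p arm exceeded the 3p arm by 27.9-fold in parental cells (23.3 to 33.7) and 44.9-fold in spheres (15.4 to 210). The sphere ratio was 1.61 times the parental one, with an interval of 0.518 to 4.99 that includes 1. A difference in the arm ratio between the libraries was thus not detectable at this depth.

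The second erythroid marker did not accompany miR-486-5p. miR-451a, which is matured by AGO2 without Dicer and is among the most abundant miRNAs of red cells, had 11.7 RPKM in parental cells and 32.3 RPKM in spheres, on about 2 and 4 estimated reads. Its share was 13.3-fold higher in spheres, with a counting interval of 1.91 to 147, and its deposited RPKM was 2.76-fold higher with an interval of 0.396 to 30.6. The interval of the deposited ratio includes 1. miR-486-5p exceeded miR-451a by 1683-fold in parental cells (466 to 13906) and by 35.2-fold in spheres (13.5 to 131). miR-144-3p and miR-144-5p, from the hairpin next to miR-451a, and miR-4732-3p were listed at 0 in both libraries. Of the 5 erythroid miRNAs looked up, miR-486-5p was thus the only one above the floor in the culture that received serum.

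The 2 miR-126 arms had higher shares in spheres. miR-126-3p restrains inhibitors of VEGF signalling in endothelium, and miR-126-5p is its partner from the 5′ arm. miR-126-5p had 4083 RPKM in parental cells and 2070 RPKM in spheres, or 154 and 376 rescaled RPKM, on about 667 and 245 estimated reads. Its share was 2.44-fold higher in spheres (2.10 to 2.83), while the deposited RPKM was 1.97-fold lower (1.70 to 2.29). miR-126-3p had 1016 RPKM and 379 RPKM, or 38.3 and 68.9 rescaled RPKM, on about 174 and 47 estimated reads. Its share was 1.80-fold higher (1.27 to 2.49), below the 2-fold rule, and the deposited RPKM was 2.68-fold lower (1.93 to 3.78). The direction of both arms therefore depends on the scale: higher as a share of miRNA and lower per read behind the authors' RPKM.

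In both libraries miR-126-5p was the more abundant arm. It exceeded miR-126-3p by 4.02-fold in parental cells (3.40 to 4.77) and by 5.46-fold in spheres (3.98 to 7.62), per length. The sphere ratio was 1.36 times the parental one, with an interval of 0.953 to 1.93 that includes 1. The 5p arm was thus ahead in both cultures, and a shift between them was not detectable at this depth.

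miR-143-3p and miR-145-5p, which come from neighbouring hairpins and are abundant in smooth muscle and fibroblasts, were at very different levels. miR-143-3p had 686 RPKM in parental cells and 365 RPKM in spheres, or 25.9 and 66.3 rescaled RPKM, on about 112 and 43 estimated reads. Its share was 2.56-fold higher in spheres (1.76 to 3.67), and its deposited RPKM was 1.88-fold lower (1.31 to 2.73). miR-145-5p had 0 RPKM in the parental library and 7.72 RPKM in spheres, about 1 read. Both values are at or under the floor, so no fold between the libraries is given. miR-143-3p was at least 39.2-fold higher than miR-145-5p in parental cells, against the floor, and 47.3-fold higher in spheres (8.05 to 1912). The parental figure is a lower bound and the sphere figure a ratio to about 1 read, so they are not compared. The opposite arms miR-143-5p and miR-145-3p were listed at 0 in both libraries.

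The leukocyte and liver markers were near or at 0. miR-150-5p, a miRNA of mature lymphocytes, had 0 RPKM in the parental library and 72.7 RPKM, or 13.2 rescaled RPKM, in spheres, on about 9 estimated reads (exact Poisson interval 4.12 to 17.1). At that point value it was, against the parental floor, at least 19.97-fold higher as a share and at least 4.15-fold higher as deposited. The exact interval of about 9 sphere reads against 0 parental reads, which uses no floor, began at 13.1 by share and 2.73 as deposited. Its mean of 6.59 rescaled RPKM left it below the level counted as measured. miR-223-3p, a miRNA of neutrophils and monocytes, had 2.24 RPKM in parental cells, less than 1 read, and was listed at 0 in spheres. miR-122-5p, the main miRNA of hepatocytes, was listed at 0 in both libraries, as were miR-122-3p, miR-150-3p and miR-223-5p. Of these 3 markers, only miR-150-5p in spheres exceeded the floor, in the culture for which no serum is named.

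**Figure D1:**
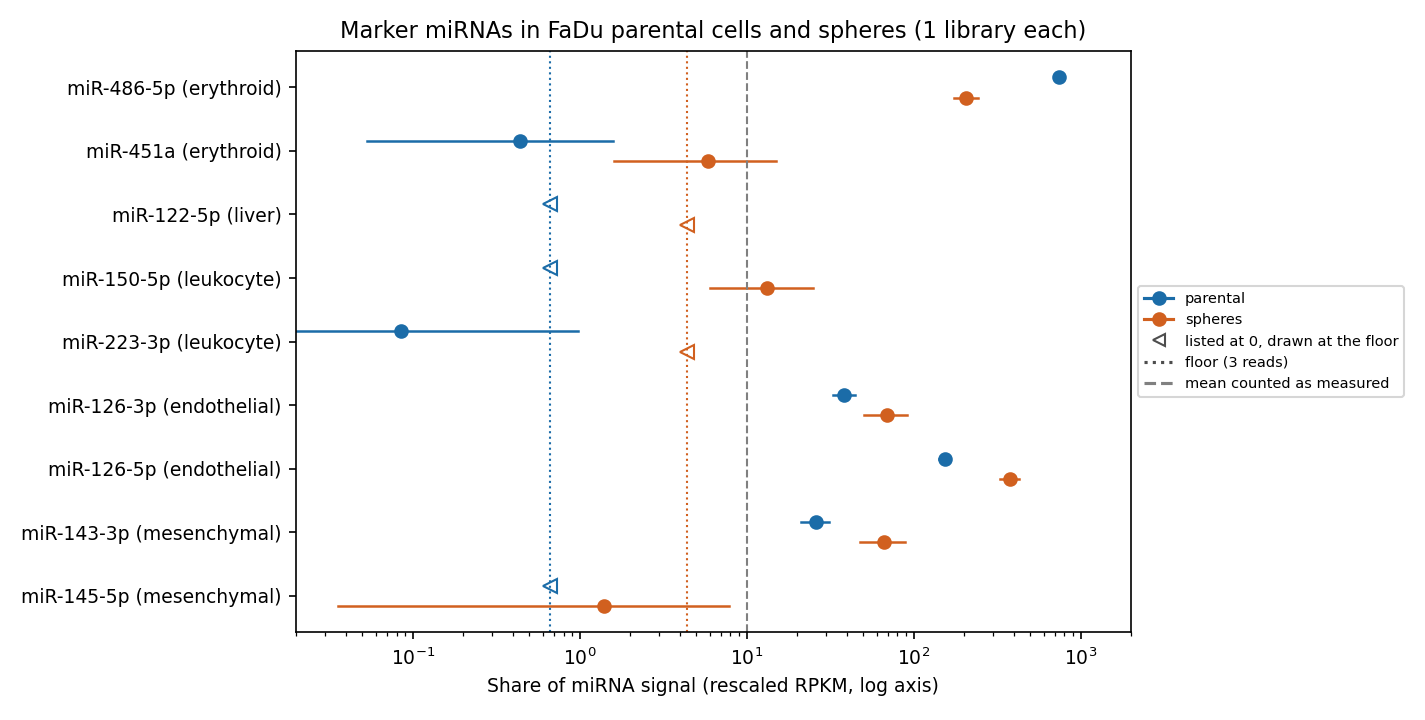
Share of the miRNA signal of each of the 9 markers (rescaled RPKM, log axis) in the parental (blue) and sphere (orange) library, with exact Poisson 95% intervals of the estimated reads. Open triangles are values of 0 drawn at the floor of 3 reads. miR-486-5p lies at 741 and 207 rescaled RPKM, whereas miR-126-5p lies at 154 and 376.

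Of the 4 measured markers, miR-486-5p was at least 2-fold lower in spheres by share, miR-126-5p and miR-143-3p were at least 2-fold higher, and miR-126-3p lay within 2-fold. Among all 269 measured miRNAs, 19% were at least 2-fold lower and 23% at least 2-fold higher. With 4 markers measured, the counts of 1 and 2 are a description of these miRNAs and are not read against those shares. The call of miR-126-5p was lost with the upper quartile as scaling (log2 fold 0.96). On the deposited scale miR-486-5p and miR-126-3p were at least 2-fold lower and no marker was at least 2-fold higher, where 79.6% of the measured miRNAs were lower and 6.32% higher. Over all measured miRNAs the log2 folds had a median of 0.02 by share and -2.25 as deposited. On both scales miR-486-5p lay below that median and the other 3 above it.

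**Figure D2:**
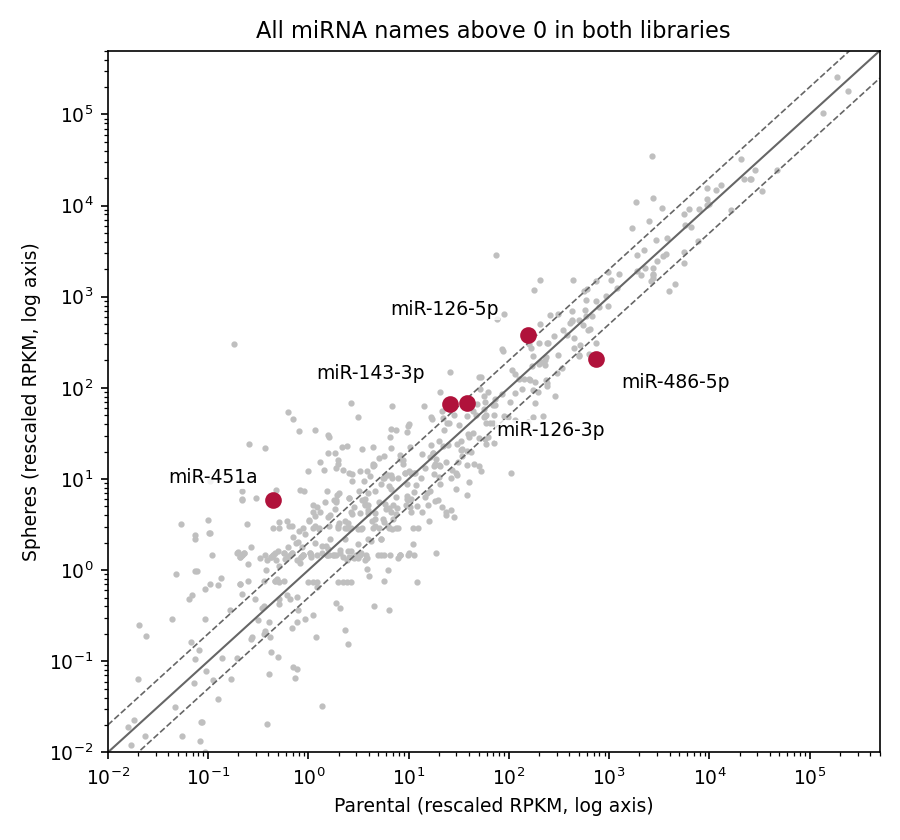
Levels of the 603 miRNA names above 0 in both libraries (grey points, rescaled RPKM, log axes, 7 names below 0.01 not drawn) with the 5 markers among them in red. The solid line marks equal shares and the dashed lines 2-fold. miR-486-5p lies below the lower dashed line, while miR-126-5p and miR-143-3p lie above the upper one, as does miR-451a on about 2 and 4 reads.

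Ratios between markers within a library do not depend on how the libraries are scaled. miR-486-5p stood at 4.82 times miR-126-5p in parental cells (4.43 to 5.24) and at 0.550 times in spheres (0.444 to 0.679). The parental ratio was 8.76 times the sphere ratio (7.01 to 10.9), and the order of the pair was opposite in the 2 libraries. Against miR-126-3p, miR-486-5p stood at 19.4-fold and 3-fold, a ratio of 6.45 between the libraries (4.48 to 9.28). Against miR-143-3p it stood at 28.7-fold and 3.12-fold, a ratio of 9.20 (6.23 to 13.6). All 3 intervals lie above 1, so in these 2 libraries miR-486-5p was lower in spheres relative to each of the other measured markers.

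The proportions among the endothelial and mesenchymal markers lay nearer to each other in the 2 libraries. miR-126-5p stood at 5.95 times miR-143-3p in parental cells and 5.67 times in spheres, a sphere ratio of 0.952 times the parental one (0.651 to 1.39). miR-126-3p stood at 1.48 times and 1.04 times miR-143-3p, a sphere ratio of 0.701 times the parental one (0.436 to 1.13). Both intervals include 1, and differences of up to those bounds remain possible at this depth.

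**Figure D3:**
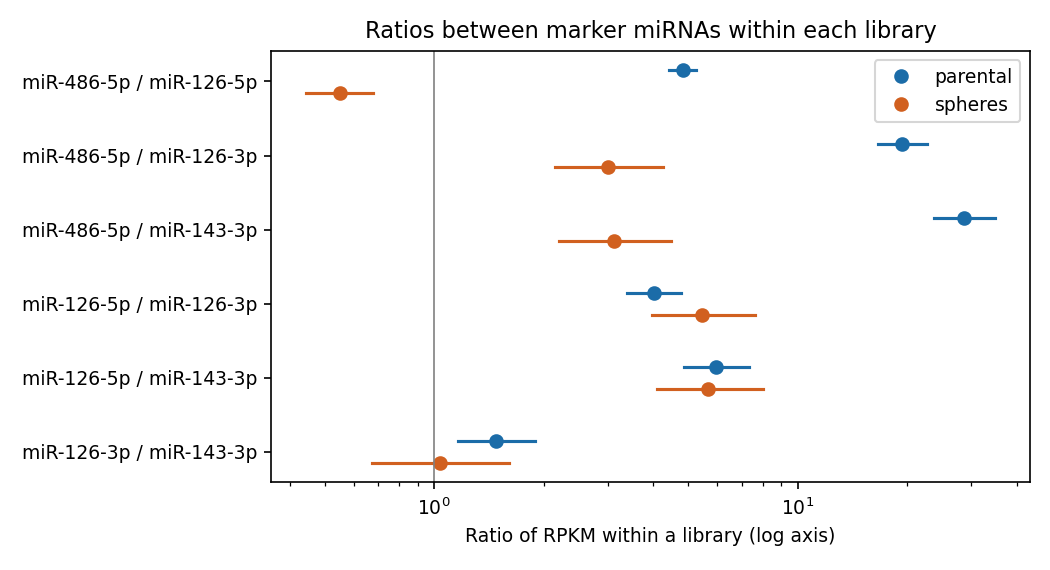
Ratio of RPKM between pairs of measured markers (log axis) within the parental (blue) and sphere (orange) library, with 95% counting intervals. The 3 ratios with miR-486-5p on top are 6.45 to 9.20 times larger in parental cells, whereas the intervals of the other 3 pairs overlap between the libraries.

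The order of the markers by level followed from this. In parental cells it ran from miR-486-5p over miR-126-5p and miR-126-3p to miR-143-3p, and the counting intervals of these neighbours did not overlap. In spheres miR-126-5p came first and miR-486-5p second, followed by miR-126-3p and miR-143-3p, whose intervals overlapped. miR-486-5p made up 77.2% of the summed level of the 9 markers in parental cells and 28.0% in spheres. The miR-126 arms made up 20.02% and 60.2%, and miR-143-3p 2.70% and 8.99%. Without miR-486-5p the other 8 markers took 219 and 531 rescaled RPKM, so by share the direction of the sum is set by this 1 miRNA. As deposited, the 9 summed to 25463 and 4066 RPKM, and the sum was lower in spheres with or without miR-486-5p.

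Further markers of the same cell types were looked up, and their values are given in the order parental cells, spheres. Of 7 leukocyte miRNAs only miR-342-3p was measured, with 704 and 386 RPKM and a log2 fold of 1.38 by share (-0.87 as deposited). miR-142-5p, a miRNA of most blood cells, had about 14 and 8 estimated reads, and miR-142-3p 0 and about 2. The 7 summed to 29.9 and 98.4 rescaled RPKM, whereas their deposited RPKM summed to less in spheres. All 4 endothelial and pericyte miRNAs were measured. By share 3 were at least 2-fold higher, beside 23% of all measured miRNAs: miR-126-5p, miR-139-5p and miR-218-5p. The last, which is also made in neurons, had 456 and 254 RPKM and a log2 fold of 1.40. miR-139-5p had about 7.5 and 13.6 estimated reads and a log2 fold of 3.23, but it reached the measured level only through spheres, at 1.58 and 19.1 rescaled RPKM. Its deposited RPKM was 2.51-fold higher, with a counting interval of 0.958 to 7.13 that includes 1. As deposited, 1 of the 4 was at least 2-fold higher (miR-139-5p) and 1 at least 2-fold lower (miR-126-3p), beside 6.32% and 79.6% of all measured miRNAs. The 4 summed to 211 and 510 rescaled RPKM, whereas their deposited RPKM summed to less in spheres. Their median log2 fold was 1.34 by share and -0.91 as deposited.

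Among 9 mesenchymal miRNAs, only miR-143-3p was measured. miR-199a-3p, a miRNA of fibroblasts, had about 9 and 5 estimated reads, miR-199a-5p 5 and 1, and miR-127-3p 9 and 11. miR-214-3p, which shares a transcript with miR-199a, had 0 RPKM in the parental library and less than 1 read in spheres. The 9 summed to 30.9 and 92.6 rescaled RPKM, whereas their deposited RPKM summed to less in spheres. Of 7 muscle miRNAs none was measured, and the highest was miR-133a on about 9 and 10 estimated reads. Since miR-486-5p is also made in muscle, the muscle sum of 2.05 and 18.3 rescaled RPKM is given beside it. All 3 liver miRNAs were listed at 0 in both libraries. The part of other cells in these values was not tested.

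A list of 20 miRNAs abundant in human serum and plasma, 5 of them among the 9 markers, gave a context for the presence of serum in the parental medium. Of the 20, 17 were measured, and by share 3 were at least 2-fold lower in spheres, 2 were higher and 12 lay within 2-fold. Among all 269 measured miRNAs 19% were lower and 23% higher. With 17 measured, and the list chosen with earlier results known, these counts are a description and give no verdict on the list. The lower ones were miR-486-5p, miR-423-5p (log2 fold -1.77) and miR-484 (-1.16), and the higher ones miR-24-3p (2.87) and miR-103a-3p (1.75). The list median was 0.05, beside 0.02 over all measured miRNAs. On the deposited scale the median was -2.22, beside -2.25. The number of lower ones was 5 or 6 under the other scalings of the libraries, where 63 to 68 of all 269 were lower, and 15 as deposited, where 79.6% of all were. Most of these miRNAs are also abundant in epithelial cells, and the part of serum RNA in their values was not tested. In the culture with serum, the erythroid markers had about 3367 (miR-486-5p) and 2 (miR-451a) estimated reads. The leukocyte markers had less than 1 (miR-223-3p) and 0 (miR-150-5p, which is not on the list). The liver marker miR-122-5p had 0, and miR-126-3p, an endothelial marker on the list, had about 174.

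The miRNAs nearest to each measured marker in the plane of both libraries, by distance in log2 (rescaled RPKM + 0.5) over the 2 libraries, were of mixed kind. For miR-486-5p they were miR-548k (distance 0.30, with 631 and 235 rescaled RPKM) and miR-484 (0.57). For miR-126-5p they were miR-23b-3p (0.30) and miR-425-5p (0.45), and for miR-126-3p miR-132-3p (0.15) and miR-320c (0.34). For miR-143-3p they were miR-342-3p (0.087) and miR-152 (0.35). With 2 libraries, this likeness says only that level and fold were close.

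**Figure D4:**
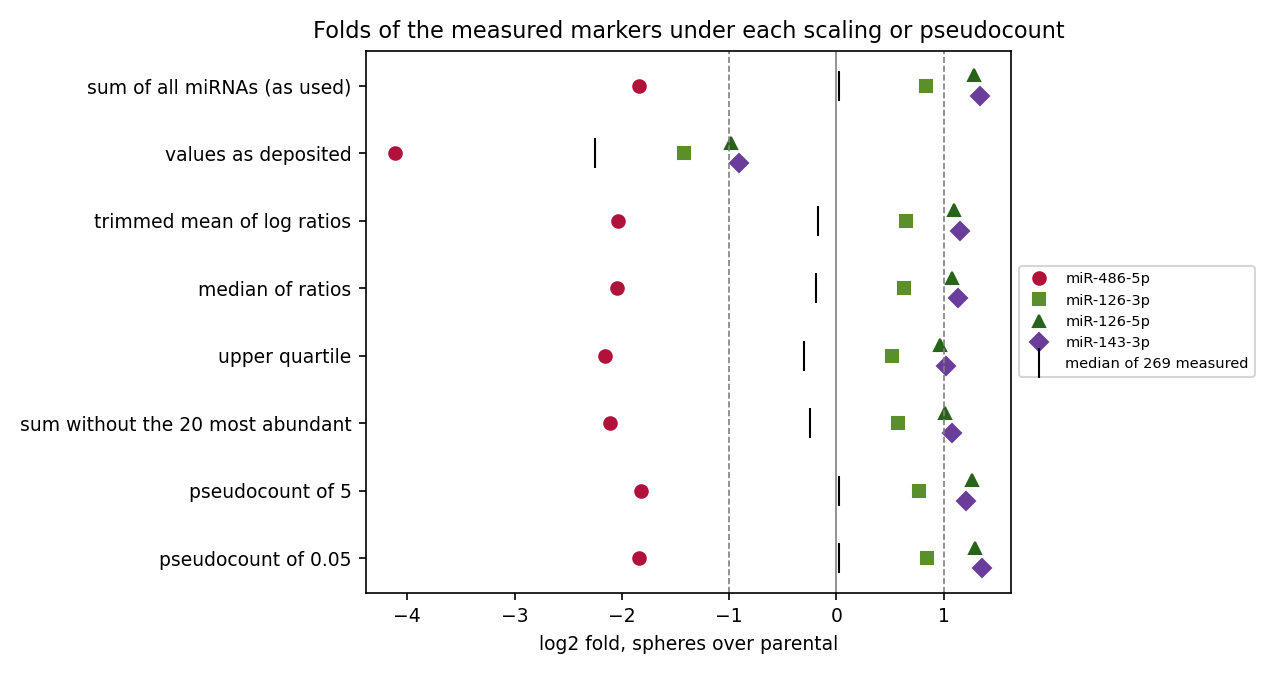
The log2 fold (spheres over parental) of the 4 measured markers under each scaling of the libraries and each pseudocount, with the median of the 269 measured miRNAs as a black bar and 2-fold as dashed lines. miR-486-5p lies between -4.11 and -1.82 throughout, left of the median, while miR-126-3p, miR-126-5p and miR-143-3p lie right of the median and turn negative only for values as deposited.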

How the data were processed

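Per the labels' protocols, 1 µg of total RNA went into each TruSeq small RNA library, with size fractionation. The authors deposited RPKM values, per the file headers, 1 per miRNA name and library. The submitters' processing notes name hg19. The aligner, counter, annotation release and handling of reads that match several miRNAs were not given in the sources used here.

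From these values, shares of the column sum times 1000000 (rescaled RPKM) and log2 folds with a pseudocount of 0.5 rescaled RPKM were computed, and of 0.5 RPKM for the deposited scale. Estimated reads are RPKM over the 1-read value, times the mature length as a fraction of 22 nt. The length was that of RefSeq for 1714 of 2038 names and 22 nt otherwise. At those lengths, 54.9% of 359 low parental values and 55.0% of 269 low sphere values (0.9 to 20 reads) were whole within a relative tolerance of 0.001. The rest are fractions, so the reads are approximate. Fold and within-library ratio intervals are exact (Clopper-Pearson), and those of ratios between libraries are normal approximations. Both compare 2 libraries, not conditions. PCR copies are not independent molecules. Python 3.11.15, numpy 2.4.6, pandas 2.3.3 and scipy 1.17.1 were used, and the steps were tested on simulated data. Named miRNAs were all 9 markers, their opposite arms, the 2 nearest miRNAs of each measured marker and the listed cell type and serum miRNAs. The markers and lists were chosen with earlier results of these data known.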

Additional observations from a re-analysis of the deposited data

How the results depend on the processing

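Values as deposited gave 0 markers at least 2-fold higher and 2 lower in spheres, in place of 2 and 1. The serum and plasma list had 15 lower miRNAs in place of 3. Of all 269 measured miRNAs, 17 were higher and 214 lower as deposited, in place of 62 and 51. The deposited values reversed the log2 folds of miR-126-5p (-0.98) and miR-143-3p (-0.91) and moved those of miR-486-5p (-4.11) and miR-126-3p (-1.42). The upper quartile left 1 marker higher, miR-143-3p, with miR-126-5p at 0.96, beside 51 of all 269. A minimum mean of 100 rescaled RPKM, or a whole counting interval beyond 2-fold, also left 1, miR-126-5p. Of all measured miRNAs, 23 of 129 and 45 of 269 were then higher. With no filter on low values 5 markers were higher, 3 of them on fewer than 10 sphere reads, beside 193 of all 2038 names. Of the serum and plasma list, 5 were lower under the trimmed mean, beside 63 of all 269. Under the median of ratios, the upper quartile and the sum without the 20 most abundant miRNAs 6 were lower, beside 65 to 68. These 4 scalings moved the median of the measured miRNAs by -0.19 to -0.32. Under all settings run other than the deposited values, 1 marker, miR-486-5p, was at least 2-fold lower. Beside it, 42 to 68 of all 269 were lower under these scalings and pseudocounts, and 17 of 269 by whole counting interval. With the minimum mean of 100 it was 18 of 129, and with no filter 180 of 2038. Without miR-486-5p the summed share of the markers was 219 (parental) and 531 (spheres) rescaled RPKM, in place of 960 and 738, and as a share of estimated reads it was 950 and 717. No paired analysis was possible because each group has a single library, and leaving out a replicate could not be run for the same reason.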
